A study of Mus musculus with 4 samples.

Results

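Endothelial cells of the mouse heart with many transcripts of 6 interferon-induced genes, Ifit1, Ifit2, Ifit3, Rsad2, Isg15 and Ifi44, are described here. A cell counted as endothelial when it held at least 4 UMIs (unique molecular identifiers, each standing for 1 captured transcript) of Pecam1, Cdh5 and Egfl7 together. It could hold at most 3 UMIs of the fibroblast, macrophage and pericyte genes Dcn, C1qa, C1qb, C1qc, Kcnj8 and Vtn, and at most 1 of the endocardial genes Npr3 and Cytl1. Among 6867 such cells, 1347 (19.6%) held 8 or more UMIs of the 6 genes and are called interferon-high. The 2854 cells with at most 1 such UMI are called interferon-low, and 2666 cells lay between them. Because the 6 genes chose the cells, their levels are a description and carry no test.

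The study profiled single cells of whole hearts from offspring aged 6 weeks. Their dams had been fed either a diet rich in resistant starch, a fermentable fibre, or a control diet while pregnant and nursing. The sample labels call the second diet a control diet and the series text calls it low-fibre, and these were taken as the same group. All offspring ate the same standard chow from weaning at 3 weeks. Each diet had 2 libraries, called high-fibre 1 and 2 and control 1 and 2 below. The series text names no strain, genetic change or number of animals per library, so the spread between the 2 libraries of a diet may be technical as well as biological. Hearts were digested with collagenase IV at 2 mg/mL and dispase II at 1 mg/mL, and live, nucleated, metabolically active cells were sorted before capture.

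Cells sense interferons through surface receptors that activate transcription factors, among them the complex that holds IRF9. That complex binds interferon-stimulated response elements and switches on antiviral genes, and genes that answer to interferon gamma can carry another element, the gamma-activated site. Ifit1, Ifit2 and Ifit3 encode proteins that hold back viral RNA. Rsad2 encodes viperin, an antiviral radical-SAM enzyme, Isg15 encodes a ubiquitin-like modifier, and Ifi44 encodes an interferon-induced cytoplasmic protein.

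To show what precedes the genes that chose the cells, the RefSeq sequence (GRCm38.p6) of the 250 bases before the start site is printed for the 4 of the 6 genes that hold the core of the response element, which is GAAA, any 2 bases and GAAA again, on either strand. Capitals mark the matches. The stretches are chr19:34640639-34640888 (plus strand) for Ifit1, chr19:34583279-34583528 (plus strand) for Ifit3, chr4:156200819-156201068 (minus strand) for Isg15 and chr12:26456453-26456702 (minus strand) for Rsad2.
Ifit1: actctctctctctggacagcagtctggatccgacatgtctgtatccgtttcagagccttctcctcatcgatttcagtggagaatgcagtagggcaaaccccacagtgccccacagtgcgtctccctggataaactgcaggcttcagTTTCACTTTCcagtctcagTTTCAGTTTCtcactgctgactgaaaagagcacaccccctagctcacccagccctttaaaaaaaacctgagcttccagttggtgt
Ifit3: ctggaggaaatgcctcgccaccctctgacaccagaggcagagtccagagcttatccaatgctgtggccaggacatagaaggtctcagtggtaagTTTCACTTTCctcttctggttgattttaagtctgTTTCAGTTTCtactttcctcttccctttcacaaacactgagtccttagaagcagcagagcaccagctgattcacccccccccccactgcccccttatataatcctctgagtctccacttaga
Isg15: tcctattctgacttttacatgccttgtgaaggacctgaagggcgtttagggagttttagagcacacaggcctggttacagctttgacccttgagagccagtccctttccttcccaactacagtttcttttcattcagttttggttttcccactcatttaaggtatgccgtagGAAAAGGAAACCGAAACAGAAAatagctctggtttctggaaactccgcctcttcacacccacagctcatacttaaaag
Rsad2: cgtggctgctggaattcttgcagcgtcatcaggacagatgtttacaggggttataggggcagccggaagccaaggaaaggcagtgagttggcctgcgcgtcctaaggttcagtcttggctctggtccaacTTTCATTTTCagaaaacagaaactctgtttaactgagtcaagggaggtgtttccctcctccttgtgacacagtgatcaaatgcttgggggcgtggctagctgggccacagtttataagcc
Ifit1 and Ifit3 each held 2 matches, Isg15 held 3 that overlap in a row, and Rsad2 held 1. The windows of Ifit2 and Ifi44 held none of these letters within 250 bases before to 50 after the start. Over windows of that length, 3.99% of the 27025 genes in the RefSeq table held the core.

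The 4 libraries held 27577599 to 69600492 UMIs. In all, 884 distinct barcodes occurred in more than 1 library, as 2920 deposited entries, and they were shallow in 3 libraries (median 630 to 685 UMIs) and deep in control 2 (median 17333 UMIs). After cells under 1000 UMIs or over 20% mitochondrial UMIs were left out, 70 interferon-high cells carried a shared barcode, 58 of them in control 2. The main share, the diet tests in interferon-high and interferon-low cells and the test of their difference are given with and without those cells. The thinned shares, score steps, Rsad2-led cells, vessel types, sexes and the diet test over all endothelial cells are given with them only. The erythroid genes summed to 15530 CPM (UMIs scaled to a common total per library) in the interferon-high cells of high-fibre 1 and to at most 44.7 CPM in those of the other 3 libraries, and their part in the results was not tested.

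Interferon-high cells made up 17.7% of endothelial cells in high-fibre 1 (291 of 1642, exact 95% binomial interval 15.9% to 19.7%) and 14.2% in high-fibre 2 (323 of 2277, 12.8% to 15.7%). They made up 24.6% in control 1 (430 of 1745, 22.6% to 26.7%) and 25.2% in control 2 (303 of 1203, 22.8% to 27.7%). Both control libraries stood above both high-fibre libraries, with means of 24.9% ± 0.386 (SD, n = 2) and 16% ± 2.50 (SD, n = 2). The two-sided exact permutation test gave p = 0.33, the smallest that 6 splits of 2 against 2 libraries allow. The intervals cover counting error only.

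Depth moved with the share. The median endothelial cell held 4717 and 4647 UMIs in the high-fibre libraries and 5604 and 6093 in the control libraries. When each cell was thinned to 2000 UMIs and a cell counted from 3 UMIs of the 6 genes, the shares became 19.7% and 18.6% in the high-fibre libraries and 26.2% and 23.1% in the control libraries. The difference then shrank from -8.96 to -5.48 percentage points, and the groups still did not overlap. The unthinned difference over the same cells of at least 2000 UMIs was -8.95 points. Without shared barcodes, the unthinned difference over cells of all depths was -7.36 points in place of -8.96, with 22% in control 2.

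**Figure D1:**
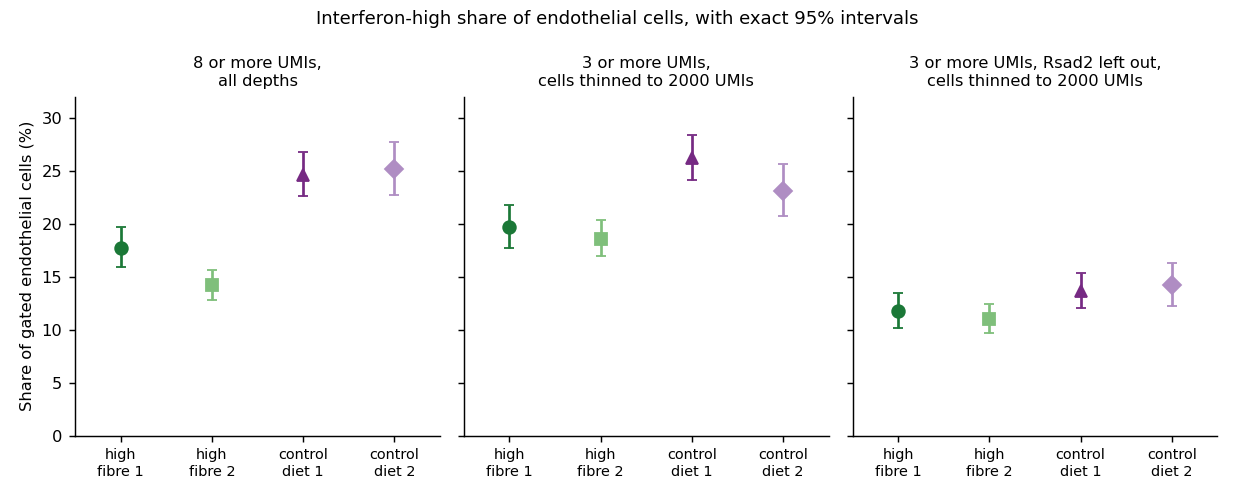
Share of gated endothelial cells that were interferon-high in each library (percent, y axis) with exact 95% binomial intervals, at 8 or more UMIs, after thinning to 2000 UMIs per cell, and after thinning with Rsad2 left out. Both control libraries lie above both high-fibre libraries in each panel, with a difference of -8.96 points in the first, -5.48 in the second and -2.53 in the third.

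The score of the 6 genes showed no gap at the bound of 8 UMIs. Counts from cells of unlike depth cannot tell a range from a separate type, and this was not tested. Cells with 7 UMIs, just outside, numbered 197, and cells with 8 UMIs, just inside, numbered 162. The median interferon-high cell held 13 UMIs of the 6 genes in both high-fibre libraries and 15 in both control libraries, and the highest cell held 320, in control 2. Cells with 30 or more UMIs numbered 211, or 9.97% and 11.5% of interferon-high cells in the high-fibre libraries and 18.4% and 21.8% in the control libraries. At least 4 of the 6 genes were seen in 70% to 72.8% of the interferon-high cells of a library, and all 6 in 21.6% to 28.4%. Interferon-high cells held 66.3%, 60.3%, 73.4% and 78.2% of the 6 genes' endothelial UMIs in high-fibre 1, high-fibre 2, control 1 and control 2.

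Isg15 stood at 523, 637, 491 and 576 CPM in the interferon-high cells of high-fibre 1, high-fibre 2, control 1 and control 2, against 19.4, 17.5, 15.7 and 12.2 CPM in the interferon-low cells. Rsad2 stood at 738, 782, 900 and 771 CPM against 33.3, 37.1, 39.5 and 28.6 CPM. These levels restate the rule, and across the 6 genes the median log2 fold ran from 3.86 (Ifi44) to 4.73 (Ifit1). All folds between interferon-high and interferon-low cells are on the log2(CPM + 5) scale, as medians of the 4 libraries.

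The same cells had more transcripts of a wide set of other interferon-induced genes. Of 6285 genes with at least 20 CPM in either population, 36 were at least 2-fold higher in all 4 libraries (0.573%), or 30 of 6279 (0.478%) without the 6 that chose the cells. Of those 30, 27 are on the interferon and antigen-presentation lists, and the others were Ifi208, Ifi211 and Ube2l6, the enzyme that hands ISG15 on. At a lower bar of 1.3-fold in all 4 libraries, 95 genes were higher (1.51%) and 75 lower (1.19%), and the median of all compared genes was -0.05. The cells were chosen by their counts in these libraries, so these numbers are a description and not a test.

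Among the interferon effectors, 33 of 43 measured genes reached the level, 16 were 2-fold higher in all 4 libraries, none was 2-fold lower, and their median log2 fold was 1.15. Ifit3b, a near-copy of Ifit3 whose reads cannot be kept fully apart from it, stood at 80.1, 95.3, 82.6 and 104 CPM against 7.81, 10.7, 11.2 and 12.2 CPM, the highest median fold outside the rule at 2.67 ± 0.13 (SD, n = 4). The lowest interferon-high library was several times above the highest interferon-low one. Oasl1, a 2'-5'-oligoadenylate synthetase-like gene that curbs translation of Irf7, stood at 33.4, 40.2, 35.3 and 32.7 CPM against 0.681 to 2.27 CPM (median log2 fold 2.61). Oasl2 (2.13), the mitochondrial nucleotide kinase gene Cmpk2 (2.12), Oas1a (2.04), which makes the activator of RNase L, Rtp4 (1.90) and Eif2ak2 (1.69), which encodes the RNA-sensing kinase PKR, followed.

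The receptor genes did not share in this. Ifnar1 stood at 41.4, 47.9, 55.4 and 60.2 CPM in interferon-high cells and 48.9, 45.6, 51.8 and 56.0 CPM in interferon-low cells, with a median log2 fold of 0.08, and Ifnar2 at -0.01. Of the 18 compared genes of interferon receptors and signalling together, 4 were 2-fold higher in all 4 libraries. The median of that list, receptor genes included, was 0.06. Usp18, the protease that removes ISG15 and blocks the receptor in negative feedback, stood at 85, 92.6, 84.1 and 87.4 CPM against 11.9, 9.90, 8.86 and 10.3 CPM (median log2 fold 2.64 ± 0.13, SD, n = 4). Its libraries hardly differed from each other within either population.

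Irf7, the factor that amplifies type I interferon transcription, stood at 118, 129, 112 and 103 CPM against 40.8, 29.3, 29.3 and 31.2 CPM (1.67). Stat2, which encodes a partner of IRF9, had a median log2 fold of 1.29. Irf9 itself reached 1.04 but missed a doubling in control 1, with folds from 0.91 to 1.17. Irf1, an early target of interferon gamma, was nearly level at 0.15.

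GTPases and other genes typical of interferon gamma stood higher as well. Of 16 compared, 7 were 2-fold higher in all 4 libraries, all 16 were above 0 in each of them, and the median was 1.16. Igtp, an immunity-related GTPase, stood at 79.2, 96.2, 64.6 and 89.2 CPM against 21.7, 24.3, 26.2 and 25.1 CPM (1.65), and the guanylate-binding protein gene Gbp3 had a median of 1.47. Cd274, which encodes the checkpoint ligand PD-L1, stood at 55.2, 67.3, 47.5 and 75.9 CPM against 22.3, 26.4, 17.7 and 35.8 CPM (1.17).

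Antigen presentation moved little by comparison. None of 20 class I presentation genes was 2-fold higher, 14 were above 0 in all 4 libraries, and their median was 0.27. B2m, the light chain of class I molecules, stood at 1273, 1523, 1225 and 1695 CPM against 1128, 1238, 992 and 1516 CPM (0.24), and the immunoproteasome subunit gene Psmb8 had a median of 0.66. H2-K1 was level at 0.09. The 4 class II genes compared were all lower, with a list median of -1.0, and Cd74 stood at 249, 42.0, 22.2 and 16.7 CPM against 269, 121, 140 and 45.0 CPM. Macrophage genes moved with them: the 9 of that list summed to 144, 156, 57.0 and 63.0 CPM in interferon-high cells and 422, 253, 78.7 and 97.5 CPM in interferon-low cells, and B cell genes summed to 267, 15.8, 6.86 and 2.44 CPM against 225, 89.5, 145 and 59.8 CPM. The part of either cell type in the class II values was not tested.

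None of the 6 compared nucleic acid sensors and adaptors was 2-fold higher in all 4 libraries, 3 were above 0 in all 4, and their median was 0.25. The highest values were those of 2 cytosolic RNA sensors. Ifih1, which encodes MDA5, stood at 86.8, 110, 97.3 and 103 CPM against 43.7, 33.6, 34.4 and 36.6 CPM (1.38), and Ddx58, which encodes RIG-I, had a median of 1.02. Chemokines gave a scattered picture. None of 9 compared was 2-fold higher in all 4 libraries. Cxcl10, the T cell attractant widely used as an interferon marker, averaged 19.8 CPM in interferon-high cells and so missed the level of 20 CPM. It stood at 12.9, 51.5, 5.80 and 9.05 CPM against 15, 3.30, 1.02 and 3.81 CPM, with the populations overlapping. In high-fibre 2 it stood at 364 CPM in the 37 cells with 30 or more UMIs of the 6 genes and at 4.62 CPM in those with 8 to 15. Cxcl9 was modestly higher in all 4 libraries (0.46 ± 0.15, SD, n = 4), as was the death ligand gene Tnfsf10 (0.72).

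**Figure D2:**
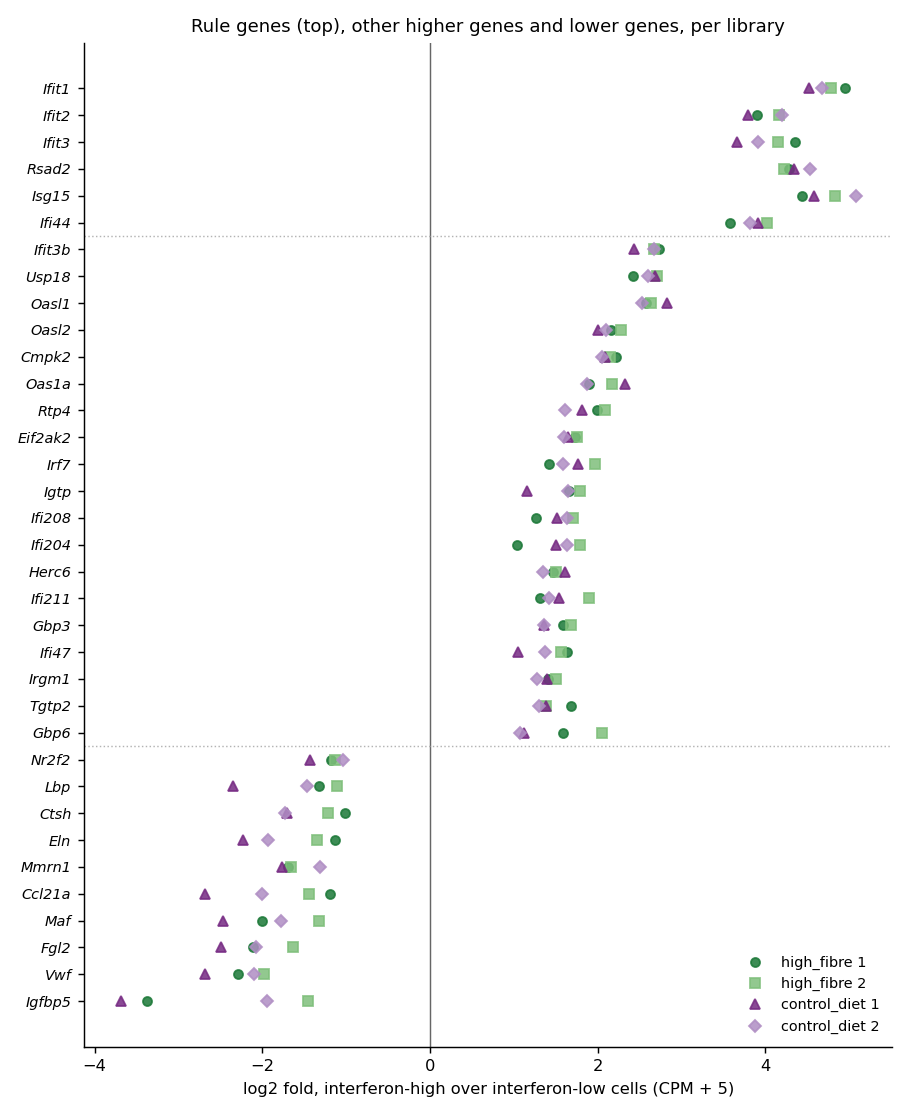
Log2 fold of interferon-high over interferon-low endothelial cells (x axis, CPM + 5) in each of the 4 libraries for the 6 genes of the rule, the other genes with the highest median fold and the 10 with the lowest. The libraries lie close together for the interferon genes, such as Usp18 at 2.64, and further apart for the lower genes, such as Igfbp5 at -2.66.

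On the lower side, 11 of 6285 genes (0.175%) were at least 2-fold lower in all 4 libraries, and leaving out high-fibre 1 or control 2 raised the count to 20 or 18. Igfbp5, which encodes a secreted binder of insulin-like growth factors, stood at 21.4, 73.6, 20.8 and 29.6 CPM against 269, 211, 328 and 128 CPM (-2.66 ± 1.08, SD, n = 4). Vwf, which encodes von Willebrand factor, stood at 8.46, 19.4, 14.5 and 12.2 CPM against 60.7, 91.8, 120 and 68.6 CPM (-2.19). Every interferon-high library lay below every interferon-low library for both genes.

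The venous regulator Nr2f2 (-1.16), the lymphatic gene Mmrn1 (-1.67), the elastin gene Eln (-1.64) and the lymphatic chemokine gene Ccl21a (-1.72), whose near-identical copies may share reads, were also lower. Of the 11, Vwf and Nr2f2 are on the venous list and Mmrn1 on the lymphatic list, and the others were Igfbp5, Fgl2, Maf, Ccl21a, Eln, Ctsh, Lbp and Fmo2. The 4 compared venous genes had a median of -0.91 and the 4 lymphatic genes of -1.27. The 7 arterial genes had a median of -0.42 and none was 2-fold lower in all 4 libraries. Capillary genes hardly moved, with a median of -0.02 over 10 genes. Cd36, the fatty acid transporter gene of capillary endothelium, stood at 3047, 2983, 2523 and 2923 CPM against 3171, 3064, 2624 and 3149 CPM.

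Both populations passed the same endothelial gate, so the choice of cells fixed this label in large part. Pecam1, Cdh5 and Egfl7 set the gate, and 14 identity genes together stood at 6639 to 7170 CPM in interferon-high cells and 7184 to 7754 CPM in interferon-low cells. Of the 14, 7 were lower in interferon-high cells in all 4 libraries and 1 was higher in all 4, with a median log2 fold of -0.12. The tight-junction gene Cldn5 stood at 1101, 820, 610 and 759 CPM against 1294, 1165, 837 and 795 CPM. Simulated-doublet scores marked 9.97%, 7.74%, 3.95% and 3.96% of interferon-high cells and 3.21%, 2.07% and 1.03% of interferon-low cells in the first 3 libraries. In control 2, 0 of 464 interferon-low cells were marked, which allows up to 0.647%. With marked cells left out, the shares of interferon-high cells ran from 13.6% to 24.6%.

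Vessel type could be set beside the score, in a comparison added after the values were seen and on cells thinned to 2000 UMIs. Cells with at least 3 UMIs of the venous genes were interferon-high in 13.1%, 11.3%, 16.5% and 18.3% of cases, against 20%, 19.1%, 26.7% and 23.4% of the remaining cells. The share was lower in the venous cells of 4 of 4 libraries, by -7.47 points on average ± 2.16 (SD, n = 4). The two-sided exact sign-flip permutation test over libraries gave p = 0.13, the smallest that 4 libraries allow. Vwf and Nr2f2, already seen to be lower in interferon-high cells of these libraries, are among the venous genes of this gate. The venous difference and its p-value therefore restate that contrast in part and are no separate evidence. Arterial cells, taken from 5 UMIs of their genes, differed by -2.53 points ± 3.55 (3 of 4 lower) and tip-like cells by -0.44 ± 4.60 (1 of 4 lower), both less than the spread between libraries. Lymphatic cells, also taken from 5 UMIs, differed by -7.49 points ± 7.41 (3 of 4 lower), over 12 to 51 such cells a library. The same limit holds for them, as Mmrn1 is among the lymphatic genes.

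Interferon genes outside the rule followed the score step by step, as the plot of summed levels by score shows. The interferon effectors summed to 5015 to 5788 CPM in interferon-low cells and 5771 to 6751 CPM in cells with 2 to 7 UMIs. They summed to 7147 to 8551 CPM at 8 to 15 UMIs, 8854 to 11354 CPM at 16 to 29 UMIs and 12374 to 15263 CPM at 30 or more. Usp18 ran from 8.86 to 11.9 CPM in interferon-low cells to 132 to 275 CPM in the top step, and Oasl1 from 0.681 to 2.27 to 80.7 to 131 CPM. Gbp7 ran from 142 to 183 CPM to 604 to 766 CPM. Class I presentation genes, at 6046 to 7802 CPM in interferon-low cells, stood at 6927 to 9112 CPM in the top step. Depth moved with the score too, from medians of 4050.5 to 5202 UMIs in interferon-low cells to 5926 to 9180 UMIs in the top step. Drawing deeper interferon-low cells gave 20 lower genes in place of 11. The draw reached the depth of the interferon-high cells in the high-fibre libraries (medians of 6195 and 5731 against 6331 and 5740 UMIs) but only in part in the control libraries (5376.5 and 6497 against 7566 and 7686 UMIs).

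**Figure D3:**
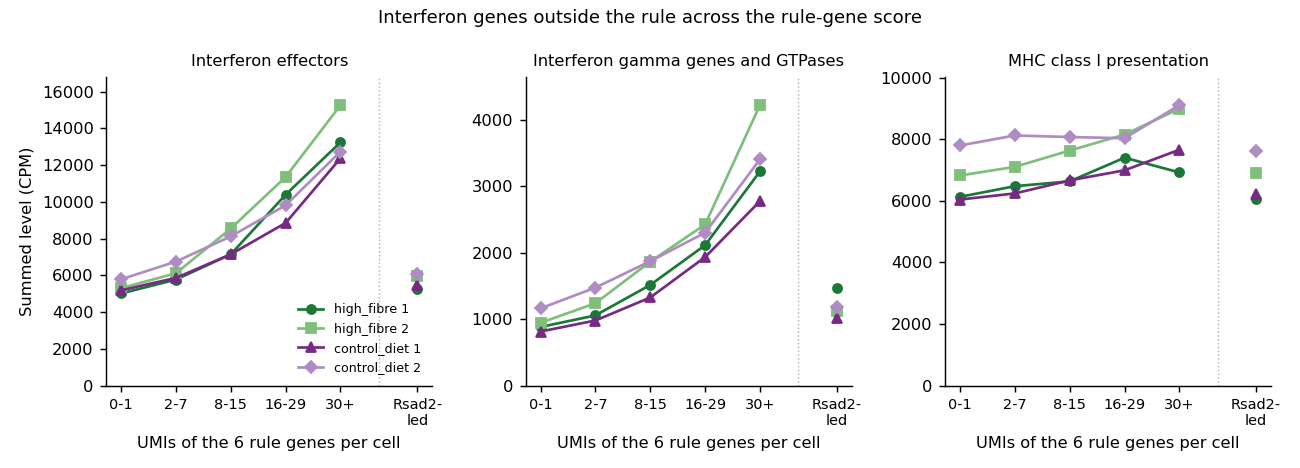
Summed level (CPM, y axis) of interferon effectors, interferon gamma genes and GTPases, and class I presentation genes in endothelial cells grouped by their UMIs of the 6 rule genes (x axis), 1 line per library. Effectors run from 5015 to 5788 CPM at 0 to 1 UMI up to 12374 to 15263 CPM at 30 or more, and the cells led by Rsad2, set apart at the right, lie at 5236 to 6080 CPM.

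For some of the interferon-high cells the label of an interferon response was not borne out by the other interferon genes. In 241 of 1347 (17.9%), at least 75% of the 6 genes' UMIs came from Rsad2 alone. These Rsad2-led cells, defined after the values were seen, numbered 41, 55, 91 and 54, or 14.1%, 17.0%, 21.2% and 17.8% of the interferon-high cells of high-fibre 1, high-fibre 2, control 1 and control 2. Only 23 cells were led in this way by any of the other 5 genes. The median depth of Rsad2-led cells, from 5977 to 8267 UMIs, was near that of the remaining interferon-high cells, from 5662.5 to 7814 UMIs. Their median score was lower, at 10, 10, 11 and 11 UMIs of the 6 genes against 13, 14, 17 and 18. By definition few of those UMIs came from the other 5 genes. The part of the lower score in the contrasts below was not tested.

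In Rsad2-led cells none of 33 interferon effectors was 2-fold above the interferon-low cells in all 4 libraries, and the effectors' median log2 fold was 0.20. In the remaining 1106 interferon-high cells 20 of 33 were, with a median of 1.27. Over all genes, 45 of 6279 were 2-fold higher in those remaining cells (0.717%) and 8 lower (0.127%). The 45 include all 6 rule genes, which chose the cells. Irf7 stood at 59.2, 31.6, 55 and 41.4 CPM in Rsad2-led cells, at 126, 151, 127 and 115 CPM in the remaining interferon-high cells and at 29.3 to 40.8 CPM in interferon-low cells. Usp18 stood at 13.9, 17.0, 22 and 17.4 CPM, 95.4 to 110 CPM and 8.86 to 11.9 CPM in the same order. Bst2, which encodes the virus-tethering protein tetherin, stood at 394, 494, 624 and 662 CPM, 884 to 1283 CPM and 489 to 685 CPM. For each of these genes the Rsad2-led cells lay nearer to the interferon-low cells than to the other interferon-high cells.

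Against interferon-low cells, 6 of 6390 genes (0.0939%) were 2-fold higher in Rsad2-led cells in all 4 libraries. Rsad2, Ifit2, Ifi44 and Isg15 helped to choose both populations, so their place among the 6 restates the rule. Only Olfr1396 and Col15a1 lie outside the rule. Another 36 genes (0.563%) were 2-fold lower. Olfr1396, named as an olfactory receptor gene, stood at 83.6, 77.9, 70.9 and 93.7 CPM against 17.4 to 20.2 CPM (1.79), and at 28.8 to 32.7 CPM in the remaining interferon-high cells. It lies on chromosome 11 at 49109982 to 49114874 (GRCm38, minus strand) and overlaps Olfr56 on the other strand. Col15a1, which encodes a basement-membrane collagen, stood at 219, 241, 236 and 196 CPM against 60.4 to 80.4 CPM (1.61). Against the remaining interferon-high cells Olfr1396 was the only one of 6249 genes (0.016%) 2-fold higher in all 4 libraries, and 25 (0.4%) were 2-fold lower.

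Cmpk2, which lies beside Rsad2 on chromosome 12 (26469204 to 26479837, plus strand, against 26442746 to 26456452, minus strand, for Rsad2), stood out among the effectors. It stood at 90.6, 122, 58.6 and 56.7 CPM in Rsad2-led cells against 25.6 to 31.8 CPM in interferon-low cells. Vwf had a log2 fold of -3.08 and Mmrn1 of -4.70 against interferon-low cells.

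**Figure D4:**
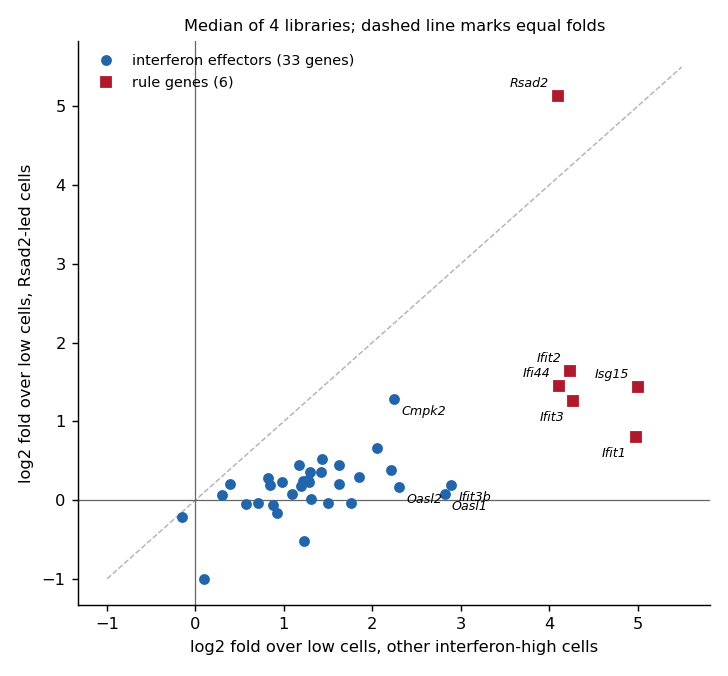
Median log2 fold over interferon-low cells (4 libraries) of 33 interferon effectors and the 6 rule genes in the interferon-high cells not led by Rsad2 (x axis) and in those led by Rsad2 (y axis). Most effectors lie near 0 on the y axis (median 0.20) and well to the right on the x axis (median 1.27), and Rsad2 lies above the line of equal folds.

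Rsad2 was also present in endothelial cells without the other 5 genes. Of 2827 endothelial cells with no UMI of those 5, 290 (10.3%) held 4 or more UMIs of Rsad2. Such cells, with or without the other genes, made up 14.1% to 27.5% of endothelial cells, at most 0.473% of fibroblasts, 1.13% of macrophages and 0.365% of pericytes. Olfr1396 was likewise at most 0.720 CPM in those 3 cell types. With Rsad2 left out of the sum, 10.5%, 8.48%, 13.5% and 16% of endothelial cells were interferon-high, a difference of -5.27 points between diets. With thinning as well the shares were 11.8%, 11%, 13.7% and 14.2%, and the difference was -2.53 points.

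Other cell types of the same hearts seldom reached 8 UMIs of the 6 genes. The share was 3.72% to 4.53% of 6014 fibroblasts, whose median depth of 11970 to 16160.5 UMIs was above that of endothelial cells, and 3.25% to 5.26% of 3124 macrophages. Pericytes, at a median depth of 4189.5 to 5427 UMIs like that of endothelial cells, had a share of 0.365% to 1.72%. After thinning the shares were 1.81% to 2.69%, 1.55% to 3.46% and 0.394% to 3.67%, against 18.6% to 26.2% of endothelial cells. The 6 genes differed in how far they were shared. Ifi44 stood at 71.6 to 98.6 CPM over all endothelial cells and at 0 to 3.6 CPM in those 3 types. Ifit3 stood at 70.4 to 108 CPM in endothelial cells and still at 42.2 to 65.1 CPM in fibroblasts, and Isg15 at 174 to 231 CPM and at 49.8 to 60 CPM in macrophages. Oasl2, which is outside the rule, stood at 48.8 to 69.6 CPM in endothelial cells and at 58.2 to 77.7 CPM in macrophages.

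Transcripts of the interferons themselves were rare. Ifnb1 gave 22, 9, 14 and 10 UMIs in all kept cells of high-fibre 1, high-fibre 2, control 1 and control 2, and 0 in 6867 endothelial cells, which allows up to 0.0437% of cells with a UMI. That limit does not cover cells that express the gene without a captured UMI. Ifng gave 216, 94, 127 and 17 UMIs, of which 19 were in endothelial cells and 9 in interferon-high cells of high-fibre 2. Of the alpha, epsilon, kappa and lambda genes listed, Ifnab gave 1 UMI and the others none.

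Cells of both sexes were present in every library, as read from Xist and Y-linked UMIs. Interferon-high cells made up 17.3%, 14.1%, 25.3% and 25.4% of female cells and 20.4%, 14.2%, 29.1% and 27.3% of male cells. The share was lower in female cells of 4 of 4 libraries, by -2.25 points ± 1.66 (SD, n = 4; two-sided exact sign-flip permutation p = 0.13, the smallest possible). Female cells were shallower in each library, and after thinning the difference was 0.10 points ± 3.15 with 1 of 4 libraries lower (p = 1 by the same exact test).

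Between the diets, few genes differed within the interferon-high cells, and none of them was an interferon gene. UMIs were summed per library, and edgeR's quasi-likelihood test with Benjamini-Hochberg adjustment called 7 of 10025 genes (0.0698%), 6 higher (0.0599%) and 1 lower (0.00998%) in the high-fibre libraries. None of the 37 tested interferon effectors, 21 receptor and signalling genes or 16 gamma genes was called, with medians of 0.10, 0.10 and 0.04 on the log2 scale. The 6 rule genes ran from -0.13 (Rsad2) to 0.25 (Ifit1), and the selection of cells by these genes limits how far they could differ. All 10 heat shock genes were above 0, with a median of 0.58 and none called. The same held in interferon-low cells (median 0.65) and over all endothelial cells (0.57), so it was not particular to interferon-high cells. The median of all 10025 genes was 0.0009, and the share of them above 0 is not given. In interferon-high cells the heat shock sum of 13116 CPM in high-fibre 1 stood apart from 8241, 7616 and 7263 CPM in high-fibre 2, control 1 and control 2.

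Tyrobp and Fcer1g, adaptor genes of myeloid receptors, led the calls. Tyrobp stood at 39.3 and 26.8 normalised CPM in the high-fibre and 3.75 and 3.12 in the control libraries (log2 fold 3.26 ± 0.30 SE, edgeR adjusted p = 0.000533). Fcer1g stood at 21.7 and 30.7 against 4.82 and 4.51 CPM (2.50 ± 0.29 SE, edgeR adjusted p = 0.00286). The macrophage lysozyme gene Lyz2 stood at 79.1 and 75.5 against 26.0 and 37.5 CPM (1.33, edgeR adjusted p = 0.00719). Ptprcap, a lymphocyte gene that overlaps Coro1b on the same strand, stood at 10.8 and 8.34 against 0.804 and 1.04 CPM (3.36, edgeR adjusted p = 0.0340). The diets did not overlap for any of them, but such a split is common with so few libraries and adds no support to the calls. The share of all tested genes that show it is not given.

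Macrophage genes moved with these calls: the list's sum was 144 and 156 CPM in the high-fibre and 57.0 and 63.0 CPM in the control libraries, with none of its 9 genes at 0 in every library. Without the simulated doublets Tyrobp had a log2 fold of 1.72 (edgeR adjusted p = 0.194), Fcer1g of 1.96 (0.0620) and Lyz2 of 0.98 (0.874), and Ptprcap fell below the count filter. Tyrobp was also lost without the Rsad2-led cells (edgeR adjusted p = 0.206) and Lyz2 without the shared barcodes (0.257). The part of macrophage RNA in the calls was not tested further.

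The matrix genes Mgp, an inhibitor of calcification, and Timp4, a metalloproteinase inhibitor, were higher in the high-fibre libraries. Fibroblast genes also stood higher there in these cells (6 tested, 0 below 0, median log2 fold 0.67), with none called. So did smooth muscle genes (2 tested, 0 below 0, 2.03) and arterial genes (9 tested, 1 below 0, 0.56), again with none called. The part of these cell types in the calls of Mgp and Timp4 was not tested. Mgp stood at 84.5 and 95.7 against 41.8 and 41.0 CPM (1.15 ± 0.13 SE, edgeR adjusted p = 0.00286) and was called under every alternative tried, from 1.02 without doublets to 1.23. Timp4 stood at 617 and 557 against 368 and 355 CPM (0.73 ± 0.11 SE, edgeR adjusted p = 0.0237). Without high-fibre 1, control 2 or the shared barcodes Timp4 was no longer called (edgeR adjusted p = 0.0501, 0.147 and 0.113).

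Slc15a2, which encodes the peptide transporter PEPT2, was the lower gene, at 0.904 and 1.32 against 11.8 and 9.72 CPM (-3.20 ± 0.50 SE, edgeR adjusted p = 0.0340). It stood alike in interferon-low cells, at 0.887 and 0.608 against 8.50 and 10.6 CPM (-3.65, edgeR adjusted p = 0.0208). Leaving out high-fibre 1, control 1 or control 2 ended its call in interferon-high cells (edgeR adjusted p = 0.111, 0.177 and 0.0800), with log2 folds of -2.98 to -3.50 over the 4 libraries left out in turn. It was also lost without simulated doublets (0.0620), without Rsad2-led cells (0.124) and by DESeq2 (0.157). The call of Ptprcap was lost without the same 3 libraries, with edgeR adjusted p of 0.234, 0.0565 and 0.0974, without Rsad2-led cells (0.172) and by DESeq2 (0.0995).

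**Figure D5:**
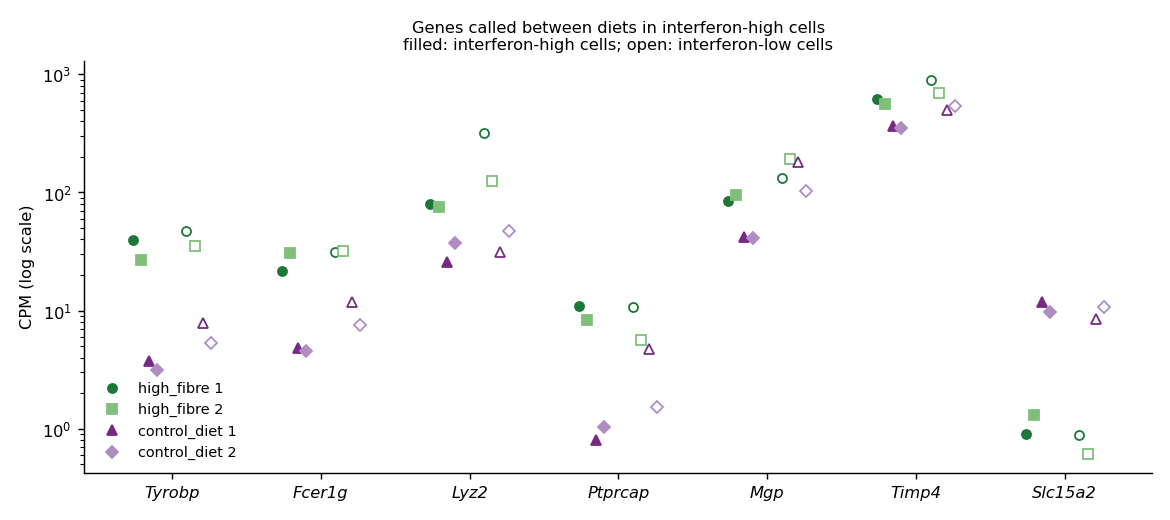
Normalised CPM (log scale, y axis) of the 7 genes called between diets in interferon-high cells (filled symbols), with the same genes in interferon-low cells (open symbols), 1 symbol per library. Tyrobp lies at 39.3 and 26.8 CPM in the high-fibre and 3.75 and 3.12 CPM in the control libraries, and Slc15a2 lies lower in the high-fibre libraries in both populations.

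In interferon-low cells the same test called 5 of 10561 genes (0.0473%), 4 higher (0.0379%) and 1 lower (0.00947%): Tyrobp, Fcer1g, the complement gene C1qa and the neutrophil gene S100a9 higher and Slc15a2 lower. C1qa is among the genes whose UMIs the endothelial gate limits, so its values were shaped by the choice of cells. Without high-fibre 1 none of these 5 was called, and without high-fibre 2 only Tyrobp and S100a9 were. Without simulated doublets Fcer1g (edgeR adjusted p = 0.418) and S100a9 (0.0575) were lost, without shared barcodes Fcer1g (0.12), and by DESeq2 C1qa (0.0792). Mgp, called in interferon-high cells, stood at 131 and 191 against 182 and 103 CPM in interferon-low cells (0.18, edgeR adjusted p = 1). The difference between its 2 diet effects was 0.92 ± 0.35 SE and was not past the threshold (limma adjusted p = 0.979).

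Over all gated endothelial cells, without selection by score, each of the 6 rule genes was lower in the high-fibre libraries, but none was called. That comparison was added after the values were seen, and 10 of 12256 genes were called in it (0.0816%), 8 higher (0.0653%) and 2 lower (0.0163%). Rsad2 stood at 307 and 286 against 449 and 362 CPM (-0.45 ± 0.11 SE, edgeR adjusted p = 0.3), and Ifit3 at 71.5 and 72.2 against 88.1 and 108 CPM (-0.44 ± 0.11 SE, edgeR adjusted p = 0.3). Ifit2, Isg15, Ifi44 and Ifit1 had log2 folds of -0.35, -0.31, -0.31 and -0.26. The diets did not overlap in level for any of the 6 genes, but with 2 libraries a diet such a split is common. The share of all genes that show it is not given. Without control 1, Ifit3 was called (-0.58, edgeR adjusted p = 0.0420), and with no filter on low counts Rsad2, Ifit3 and Ifit2 were (edgeR adjusted p = 0.00102, 0.00318 and 0.0388). Of 39 tested effectors 28 were below 0 with a median of -0.11, and of 18 gamma genes 16 were below 0 with a median of -0.21. Over all 12256 genes the median was 0.0005, and the share below 0 is not given.

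The diet effect itself differed between interferon-high and interferon-low cells for 4 of 9940 genes (0.0402%), tested with limma on the log2 difference of the 2 populations within each library. All 4 differences were positive. Bgn, which encodes the matrix proteoglycan biglycan, stood at 24 and 33.4 against 17.2 and 9.03 CPM in interferon-high cells and at 40.8 and 68.8 against 80.9 and 50.5 CPM in interferon-low cells (difference 1.43 ± 0.22 SE, limma adjusted p = 0.00298). Eln stood at 36.6 and 36.0 against 24.7 and 24 CPM in the first and 87.3 and 101 against 132 and 106 CPM in the second (0.92 ± 0.17 SE, limma adjusted p = 0.0232).

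Amd1, which encodes an enzyme of polyamine synthesis, stood at 45.7 and 40.4 against 28.7 and 25.3 CPM and at 37.3 and 31.4 against 47.2 and 47.1 CPM (1.14 ± 0.20 SE, limma adjusted p = 0.0206). The LIM-domain gene Crip1 had a difference of 0.33 ± 0.06 SE (limma adjusted p = 0.0232). Without control 2 none of the 4 was called, with limma adjusted p of 0.0671 for Bgn, 0.0756 for Eln, 0.182 for Amd1 and 0.327 for Crip1. Without shared barcodes Eln fell to 0.48 and Crip1 to 0.20, and neither was called. The 6 rule genes had differences from -0.28 (Isg15) to 0.66 (Ifit3), none past the threshold (lowest limma adjusted p = 0.450, for Ifit3).

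The letters shown for the rule genes were also looked for in the promoters of the other genes that stood higher. Of the 30 genes 2-fold higher in interferon-high cells outside the rule, 23 had a RefSeq window, and 13 of these (56.5%) held the response element core on either strand, against 4.20% of the 4977 compared genes with a window. The 13 were Eif2ak2, Gbp3, Gbp7, Ifi203, Ifi208, Ifi211, Ifit3b, Igtp, Irgm1, Oas1a, Stat2, Tgtp1 and Tgtp2. The gamma-activated site, TTCNNNGAA, was in 6 of 23 (26.1%) against 7.53% of compared genes, and the motifs do not exclude each other. Of the 11 lower genes 5 had a window, and 1, Mmrn1, held the response element core. A match describes letters in a window of 300 bases and is no evidence of binding.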

How the data were processed

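Counts were deposited per library as gene-by-barcode UMI counts. Per the submitters' processing notes the authors used Cell Ranger 3.1.0 and mm10. Per the labels' protocols the libraries were made with 10x Genomics 3′ chemistry, so a gene is read near its 3′ end and levels of different genes are not compared. The 31053 gene rows had GENCODE M21 coordinates (GRCm38) for 31011. The text names the 6 rule genes, a fixed set of signalling and identity genes, the 20 highest and 10 lowest genes by median fold, up to 4 genes per list with the largest fold, and up to 10 genes called by diet in each direction. Bst2, Gbp7, Olfr1396, Col15a1, Ube2l6 and the promoter matches outside that rule were chosen after their values were seen. A gene that the rule also names is not reported here. The members and lists were chosen with earlier results of these data known. The low-level filter kept genes with 20 CPM or more in either population, with a pseudocount of 5 CPM. Doublets stayed in unless stated, and were scored against 2 simulated pairs per cell, with 0.8% marked per 1000 barcodes. Diet tests used UMIs summed per library, edgeR 4.0.16 (TMM scaling, filterByExpr at 10 counts) and, for differences between populations, limma 3.58.1 with a prior count of 2. DESeq2 1.42.0 was an alternative. Scripts used Python 3.11.15, scipy 1.17.1 and R 4.3.3, and tests were tested on simulated data.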

Additional observations from a re-analysis of the deposited data

Results flagged for a closer look

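The diet effect differed between interferon-high and interferon-low endothelial cells by a test of the difference itself (limma, 2 libraries per diet) for 4 genes. The difference was 1.43 for Bgn, 1.14 for Amd1, 0.92 for Eln and 0.33 for Crip1 on the log2 scale. Bgn was called without high-fibre 1, high-fibre 2 or control 1, but not without control 2. The other 3 were lost without 2 or more of the 4 libraries in turn: Amd1 without high-fibre 2, control 1 or control 2, and Eln and Crip1 without high-fibre 1, control 1 or control 2. Fibroblast genes summed to 267, 277, 202 and 121 CPM in interferon-high and 300, 418, 262 and 180 CPM in interferon-low cells of high-fibre 1, high-fibre 2, control 1 and control 2, and their part in the result was not tested.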

How the results depend on the processing

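With 2 libraries a diet, no share difference could reach p under 0.05. The share difference of -8.96 points kept its sign and its groups apart under every setting: -11.5 at 5 UMIs, -5.48 thinned, -5.58 with a minimum scaled to depth, -5.27 without Rsad2, -2.53 without Rsad2 and thinned. A pseudocount of 20 CPM left 22 higher and 6 lower genes, and deeper interferon-low cells, matched only in part in the control libraries, gave 20 lower genes. Leaving out 1 library in turn gave 11 to 20 lower genes (20 without high-fibre 1, 18 without control 2). Leaving out 1 library in turn kept the sign of the share, venous and sex differences, and thinning moved the sex difference to 0.10 points. The settings for shared barcodes and Rsad2 were chosen after seeing the data. Of the fits by diet, interferon-high cells gave 134 calls with no filter, 4 without doublets and 4 without Rsad2-led cells, interferon-low cells gave 10 by DESeq2, 107 with no filter and 10 without shared barcodes, all endothelial cells 32 by DESeq2 and 241 with no filter, and the difference of effects 7 without shared barcodes. Leaving out 1 library in turn gave 8 to 117, 2 to 86, 9 to 67 and 6 to 16 calls in these 4 fits, the most without high-fibre 2, control 1, control 1 and high-fibre 2 in that order. The replicate block gave 16, 40, 50 and 37 calls, and in interferon-high cells it ended the calls of Slc15a2 and Ptprcap (both edgeR adjusted p = 0.0663). The labels do not say that a repeat number marks shared animals or days, and the deviations of same-numbered libraries correlated at 0.12 in interferon-high and 0.0994 in interferon-low cells. Genes under about 20 CPM are limited by depth.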
